A study of Mus musculus with 31 samples.

Results

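Among 31 BxD liver samples, 10 strains (11, 13, 16, 18, 22, 29, 31, 32, 34 and 38) stood far below the others at a single array feature, called the splitting probe here. They were chosen by their measured log ratios at that probe, as the smaller of 2 clusters of values, and the other 21 strains formed the comparison group. BxD strains are recombinant inbred mice whose parents are C57BL/6J and DBA/2J, and each strain is fixed for one parental allele at most loci. A transcript controlled by a nearby locus can therefore fall into 2 groups of strains.

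All animals were male, 8 weeks old and sampled as whole liver, an organ made mostly of hepatocytes with Kupffer, endothelial, stellate, bile duct and blood cells. For each BxD/TyJ strain, RNA of 3 mice was combined and carried the dye Alexa Fluor 647. Every array compared it with the same reference, RNA combined from 9 C57BL/6J mice that carried Alexa Fluor 555, and no dye swap is recorded in the labels. Each strain had 1 array, so every p-value measures the spread between strains and not that between mice. No treatment was given in the labels, and both groups share the same reference pool. Values are given as the log2 ratio of strain to reference. That base and direction are likely but not stated in the sources used here. In bulk liver, fewer cells of a type and less RNA per cell cannot be told apart.

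The splitting probe carries no gene name in the annotation, so its transcript is not known here. In the set of 10 its log2 ratio was lowest at -3.85, had a median of -3.06 and was highest at -2.43 in strain 29. In the other 21 strains it was lowest at -1.03 in strain 24, had a median of -0.05 and was highest at 0.50 in strain 9. Strains 29 and 24 are the members just inside and just outside the gap, and strain 12 was next at -0.32. Strains 11, 31 and 34 lay at the lower limit of the deposited distribution, so their values have no order among themselves. The split accounted for 93.4% of the variance of the probe. These values chose the groups, and the probe was left out of every test.

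The 2 sets of strains differed at very few other probes. Of 21764 probes, limma called 5 at an adjusted p under 0.05, which is 0.023% of those tested. All 5 were lower in the set of 10, and none was higher. At an unadjusted p under 0.05 limma gave 564 probes (2.59%), of which 297 were lower (1.36%). No probe apart from the splitting probe separated the 10 strains from the other 21 without overlap (0 of 21764). The 5 probes stand for Helz2, Adgrg6, the clone-named gene 1700006F04Rik and 2 features with no gene listed, probes 20535 and 12848. The genes lie on chromosomes 2, 10 and 14, with 1 called probe on each.

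**Figure D1:**
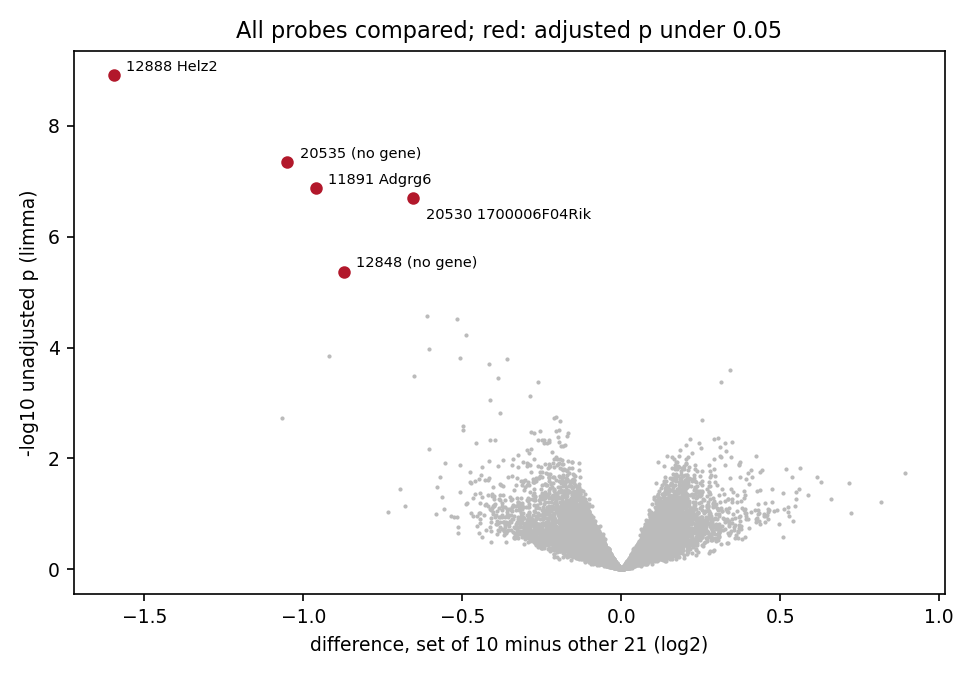
Each point is 1 of 21764 probes, with the difference between the set of 10 and the other 21 strains (log2) on the x axis and the negative log10 of the unadjusted limma p on the y axis. The 5 red points, past an adjusted p of 0.05, all lie on the lower side, and Helz2 lies farthest out.

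Helz2 encodes a helicase with zinc fingers that is induced by interferon and acts as a coactivator of PPAR nuclear receptors. Its log2 ratio in the set of 10 was lowest at -2.65, had a median of -2.32 and was highest at -2.04. In the other 21 strains it was lowest at -2.12, had a median of -0.64 and was highest at 0.30. The 10 strains lay close together, and 1 of the other 21, strain 24, lay within their range. The mean was -2.35 ± 0.20 (SD, n = 10) against -0.75 ± 0.63 (SD, n = 21). Helz2 was thus 3.03-fold lower in the set of 10, a difference of -1.60 ± 0.19 (SE; 95% interval -1.99 to -1.21; limma adjusted p = 2.68e-05). Of the other 21 strains, 18 were also below 0 at this probe. The identifier of this probe, 12888, is a multiple of 8, a class of 2532 probes (11.6% of those with a value) whose ratios were low on most arrays. The class median was nearest 0 in strains 23 (-0.06), 28 (-0.24), 40 (0.01) and 42 (-0.20), all among the other 21. Over the alternative settings, among them the fit without these strains, the Helz2 difference lay between -1.67 and -1.46. After the median of probes with the same remainder by 8 was subtracted on each array, the difference was -1.50. Helz2 has no second probe on the array, so its change was not measured elsewhere.

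Adgrg6, also known as Gpr126, encodes an adhesion G protein-coupled receptor that Schwann cells need to form myelin. Its log2 ratio in the set of 10 was lowest at -1.06, had a median of -0.69 and was highest at -0.24. In the other 21 strains it was lowest at -0.85, had a median of 0.36 and was highest at 0.93. The 2 groups lay on opposite sides of 0 for the most part, with all 10 strains below 0 and 4 of the other 21 below 0. Strains 40 and 24, at -0.85 and -0.66, were the only ones of the 21 within the range of the 10. Adgrg6 was 1.95-fold lower, a difference of -0.96 ± 0.14 (SE; limma adjusted p = 0.000976). This probe is not a multiple of 8, and Adgrg6 too has no second probe.

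The clone-named gene 1700006F04Rik on chromosome 14 showed the same arrangement at a smaller size. Its log2 ratio ranged from -0.59 to -0.01 in the set of 10, with a median of -0.34. In the other 21 strains it ranged from -0.30 to 1.19, with a median of 0.36. Strains 24 and 40, at -0.30 and -0.11, were the only 2 of the 21 below 0, while all 10 strains of the set were below 0. The difference was -0.65 ± 0.10 (SE; limma adjusted p = 0.00109), or 1.57-fold lower. For a difference beyond 0.2 the call was lost (adjusted p 0.2).

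Both called features without a gene name were also below 0 in all 10 strains. Probe 20535 had a log2 ratio of -1.62 at the lowest, -1.05 at the median and -0.50 at the highest in the set of 10. In the other 21 strains the values were -1.25, -0.04 and 0.74. Only strains 24 and 27 of the 21, at -1.25 and -0.64, fell within the range of the 10. The difference was -1.05 ± 0.15 (SE; limma adjusted p = 0.000486), or 2.07-fold lower. Probe 12848, a multiple of 8, ranged from -2.24 to -0.37 in the set of 10 with a median of -0.99, and from -0.65 to 0.68 in the other 21 with a median of -0.21. Here the groups overlapped more, with 7 of the 21 strains at or below the highest of the 10. The difference was -0.87 ± 0.16 (SE; limma adjusted p = 0.0185). That call was lost without strain 11, 13 or 16 (largest adjusted p 0.0802) and without strains 23, 28, 40 and 42 (adjusted p 0.0726), and also by an exact Wilcoxon test (adjusted p 0.0923) and for a difference beyond 0.2 (adjusted p 0.377).

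Strain 24, the lowest of the other 21 at the splitting probe, was among the low strains at each of the 5 called probes. It was singled out by the values that chose the groups, so its places are a description and no test. Strain 40, at 0.34 at the splitting probe, was lower than strain 24 at Adgrg6 (-0.85 against -0.66). Counted from the lowest of 31 strains, strain 24 was at place 3 for probe 20535, at place 7 for Adgrg6 and for 1700006F04Rik, at place 8 for probe 12848 and at place 10 for Helz2. Without strain 24 limma called 8 probes, the same 5 among them. The 3 additional ones were Oosp1 at -0.54 (adjusted p 0.0279), probe 16695 at -0.46 (adjusted p 0.0278) and probe 10183 at 0.35 (adjusted p 0.0488).

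**Figure D2:**
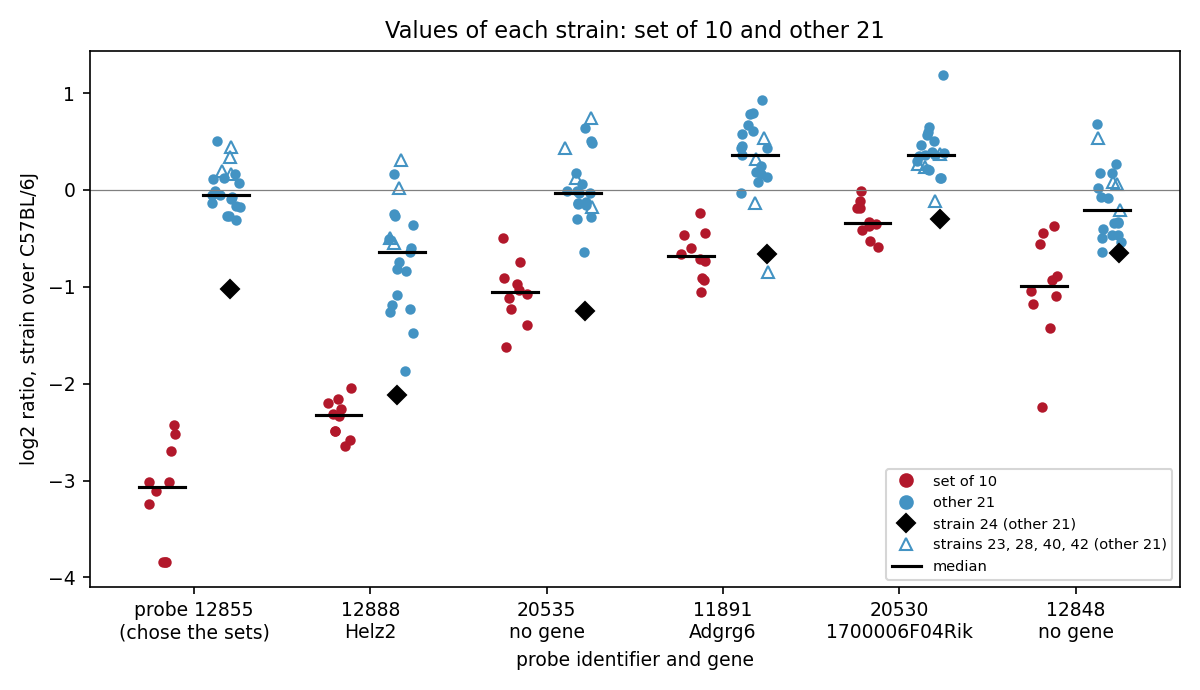
Log2 ratios of each strain (points) at the splitting probe and at the 5 called probes, with the set of 10 in red, the other 21 in blue and the group medians as bars. Strain 24 (black diamonds) lies within the range of the 10 at Helz2, Adgrg6, 1700006F04Rik and the 2 probes without a gene, and strains 23, 28, 40 and 42 are drawn as open triangles.

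The called probes were not spread evenly over the identifiers of the array. Probe 12848 lies 7 identifiers before the splitting probe and Helz2 lies 33 after it. Probe 20535 lies exactly 7680 after the splitting probe, and the probe of 1700006F04Rik lies close to probe 20535, at an offset of 7675. Adgrg6 is at an offset of -964. Of the 20 probes with the smallest p, 9 lay within 50 identifiers of the splitting probe, a window that held 99 probes (0.455% of those compared). The array layout was not used here, so it is not known which identifiers were neighbours on the glass. Whether position on the glass had a part in these differences was not tested.

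The 8 probes just before and the 8 just after the splitting probe differed from each other in this respect. All 8 before it were lower in the set of 10, with differences from -0.87 to -0.12 and a median of -0.42. Of the 8, 6 had an unadjusted p under 0.05, against 2.59% of all probes compared. In the main fit limma called only probe 12848 of these 6 after adjustment. Probe 12854 passed without strains 23, 28, 40 and 42 (limma adjusted p 0.0218) and with array weights (0.0198). Probe 12851 passed with array weights (limma adjusted p 0.0225), with 3 principal components (0.0302) and by an exact Wilcoxon test (adjusted p 0.044). Without strain 40 both passed (limma adjusted p 0.0138 for 12854 and 0.0193 for 12851). Of the 8 after the splitting probe, 5 were lower, with differences from -0.05 to 0.03 and a median of -0.01. None of them had an unadjusted p under 0.05. Averaged for each strain, the 8 probes before it ranged from -0.90 to -0.03 in the set of 10, with a median of -0.33, and from -0.23 to 0.58 in the other 21, with a median of 0.01. The 8 after it ranged from -0.11 to 0.08 and from -0.21 to 0.11. The groups overlapped on both sides, and the low p-values all lay on the side before the splitting probe.

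The genes on the lower side had little in common by name. Hydin, a protein of the central apparatus of motile cilia, had a difference of -0.36 (adjusted p 0.291), and Mei4, needed for the DNA breaks of meiosis, had -0.23 (adjusted p 1). Cuta was at -0.12, the clone-named 4930434B07Rik was at -0.61 (adjusted p 0.0961) and the clone-named 3200001D21Rik at -0.27. These genes lie on chromosomes 8, 9, 17, 1 and 12. On the other side, Tmcc2 on chromosome 1, the first probe after the splitting probe and a multiple of 8, was at 0.00. In a wider window chosen after the values were seen, all 14 probes just before the splitting probe were lower. Of these 14, 10 had an unadjusted p under 0.05, against 2.59% of all probes compared. Among the 14 before that window, 7 were lower and none had an unadjusted p under 0.05. At steps of 3840 identifiers, also examined after the values were seen, probe 16695 (3840 after the splitting probe) was at -0.42 (adjusted p 0.33) and probe 9015 (3840 before) at -0.13 (unadjusted p 0.0122, adjusted 1). Cpsf7 and Ppp1r3d, 7680 and 11520 before, were at 0.01 and 0.03.

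**Figure D3:**
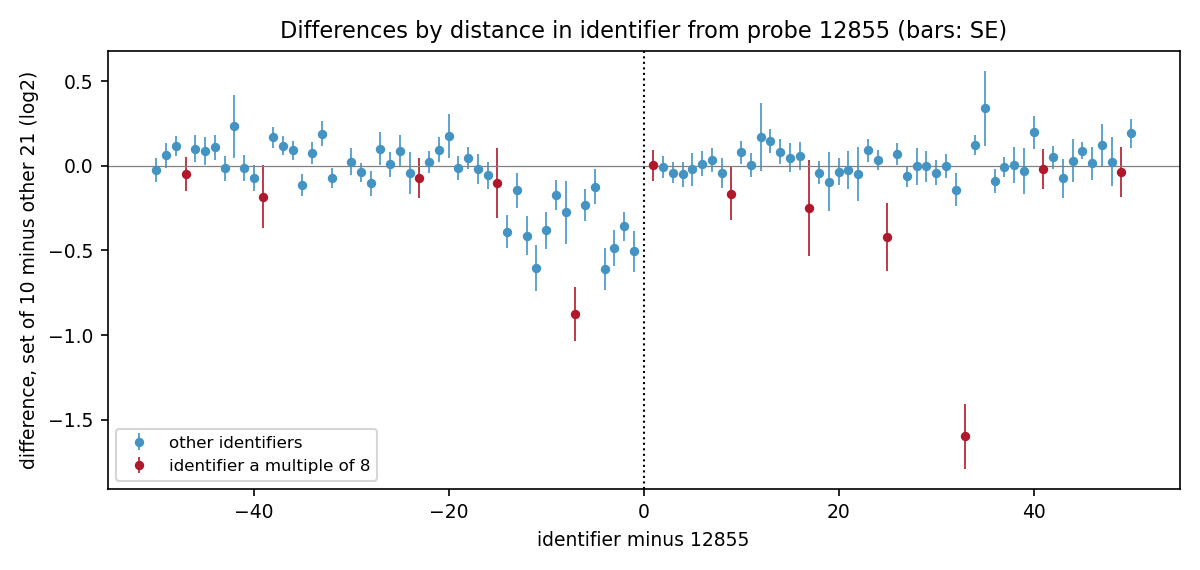
Difference between the set of 10 and the other 21 strains (log2, bars give the SE) for probes within 50 identifiers of the splitting probe, plotted by distance in identifier from it. The 14 points left of the dotted line all lie below 0, and the low red point on the right is Helz2 at 33.

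Beyond the called probes, 22 more named genes with the smallest p were taken by rule, and none of these passed the adjusted threshold. Of the 22, 17 had a lower and 5 a higher mean in the set of 10. Oosp1, an oocyte-secreted protein gene, came nearest, with log2 ratios from -1.12 to -0.57 (median -0.75) in the set of 10 and from -0.85 to 0.52 (median -0.38) in the other 21. Its difference was -0.52 ± 0.11 (SE; limma adjusted p = 0.0961), at a probe that is a multiple of 8. Among settings that keep all 31 strains, it passed under 4, with adjusted p of 0.0316 after place correction, 0.0461 with array weights, 0.00668 with 3 principal components and 0.044 by an exact Wilcoxon test.

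Among genes of signalling and transcription, the phosphoinositide 3-kinase regulatory subunit Pik3r1 had a difference of -0.50 and the kinase Vrk2 -0.50, both at multiples of 8. The GTPase-activating protein Arap1 had the largest of these differences, -1.07 ± 0.32 (SE; limma adjusted p = 1), also at a multiple of 8. Its log2 ratio ranged from -1.80 to -0.39 in the set of 10 and from -1.65 to 1.52 in the other 21, so the spread of the 21 covered nearly the whole set. Gucy1a1, a subunit of soluble guanylate cyclase, was at -0.20, and Nr5a1, the steroidogenic factor SF-1, at -0.20. Shc3, at a multiple of 8, was at -0.23, and the lymphocyte surface protein Crtam at -0.19.

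Among genes of RNA and protein handling, Znrd1, a subunit of RNA polymerase I, had a difference of -0.65 (adjusted p 0.469). Esrp1, an epithelial splicing regulator, was at -0.26 (adjusted p 0.518), and the mRNA export factor Nxt1 at -0.25. Tasp1, the protease that cleaves MLL, was at 0.34 (adjusted p 0.393). Psap, the precursor of the saposins of the lysosome, was at 0.35 at a multiple of 8, but its second probe was at 0.01 (unadjusted p 0.963). Rgs3, a regulator of G protein signalling, was at 0.29, and its second probe was at -0.02 (unadjusted p 0.863). The gap between the 2 probes of each gene was not tested.

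The remaining named genes were the neutral amino acid transporter Slc38a1 (0.30), the melanocortin receptor accessory protein Mrap (0.22), the neutral sphingomyelinase Smpd2 (-0.20), Prpsap1 (-0.17), Btbd2 (-0.38), Prp2 (-0.28) and Tcrb-V8.2 (-0.26). All had an adjusted p of 1. Btbd2, at identifier 12845, is another of the probes just before the splitting probe. The other 150 probes annotated as Tcrb-V8.2 had differences from -0.41 to 0.14 with a median of 0.00, and none was called. Among probes with no gene name, probe 8044 had a difference of -0.92 ± 0.21 (SE; limma adjusted p = 0.291). Its values ranged from -2.56 to -0.07 in the set of 10 (median -0.40, SD 1.02). In the other 21 they ranged from -0.47 to 0.36 (median -0.19, SD 0.20).

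**Figure D4:**
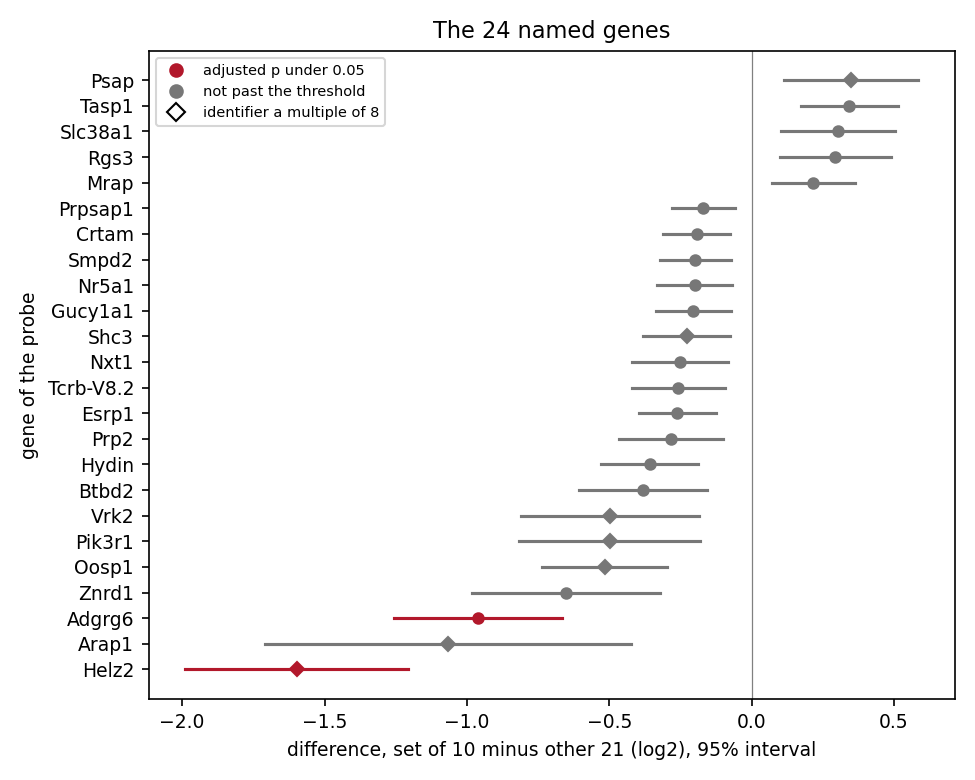
Differences between the set of 10 and the other 21 strains (log2) for 24 named genes, with 95% intervals as bars and diamonds for probes at multiples of 8. Helz2 and Adgrg6 (red) passed the adjusted threshold, and the other 22 (grey) did not.

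Liver pathways and cell type markers gave no called gene. Over 15095 genes, with probes of a gene averaged, limma called 3 (0.0199%), namely Helz2, Adgrg6 and 1700006F04Rik, and 383 had an unadjusted p under 0.05 (2.54%). None of these 3 belonged to the 32 gene lists. Of the 718 distinct list members measured, limma called 0, and 21 had an unadjusted p under 0.05 (2.92%), a share near that of all genes. The median difference was 0.00 over all genes, with 7840 of the 15095 above 0, and lay between -0.03 and 0.17 over the lists. Without strains 23, 28, 40 and 42 the list medians lay between -0.06 and 0.07.

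Lipid and bile acid genes were among those with wide spread and no call. In the cholesterol synthesis and uptake list, 14 of 19 genes were above 0 with a median of 0.07, or 0.02 without strains 23, 28, 40 and 42. The sterol oxidase Msmo1, at a multiple of 8, was at 0.27 ± 0.15 (SE). In fatty acid and triglyceride synthesis the median was -0.03 over 22 genes, with the desaturase Scd1 at 0.34 ± 0.35 (SE) and the fatty acid synthase Fasn at -0.33 ± 0.20 (SE). Of the PPAR-alpha targets, the fatty acid hydroxylases Cyp4a10 and Cyp4a14 were at -0.68 ± 0.37 and -0.58 ± 0.35 (SE), while the median of the 22 genes was 0.01. In bile acid synthesis and transport, Fgfr4, the receptor for the gut signal that restrains bile acid synthesis, was at 0.39 ± 0.18 (SE; unadjusted p 0.0388, adjusted 0.999). The median of that list was -0.01 over 20 genes.

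Genes of drug metabolism and intermediary metabolism were near 0 as groups. Cytochrome P450 families 1 to 3 had a median of -0.01 over 25 genes, with Cyp3a44 at -0.54 ± 0.33 (SE). The conjugating enzymes had a median of 0.06 over 32 genes (0.01 without strains 23, 28, 40 and 42), with the glutathione transferase Gstm1 at 0.21 (unadjusted p 0.00917, adjusted 0.999). Urea cycle and amino acid catabolism (0.02), gluconeogenesis and glycolysis control (0.02), oxidative phosphorylation (0.02) and cytosolic ribosomal proteins (0.03) had medians close to that of all genes. The complex I subunit Ndufa8, at a multiple of 8, was at -0.58 and at -0.27 without strains 23, 28, 40 and 42. Growth hormone dependent genes had medians of 0.01 (higher in male liver) and 0.03 (higher in female liver), and the circadian clock genes one of 0.01.

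Plasma protein and immune lists were similar. Acute phase genes were above 0 in 21 of 26 cases with a median of 0.09 (0.05 without strains 23, 28, 40 and 42), the serum amyloid Saa1 being at 0.48 ± 0.27 (SE). No acute phase gene had an unadjusted p under 0.05. Over all genes, 7840 of 15095 were above 0. Complement and coagulation had a median of 0.03 over 34 genes, and Hc, complement component C5, was at -0.29 (unadjusted p 0.00784, adjusted 0.999). Plasma carriers and apolipoproteins had a median of -0.01, with the retinol carrier Rbp4 at 0.37 (unadjusted p 0.013, adjusted 0.999). Interferon-induced genes, a class to which Helz2 is also assigned in general knowledge, had a median of -0.02 over 28 genes and none with an unadjusted p under 0.05. Genes of the major histocompatibility complex had a median of 0.07 over 23 genes, or 0.00 without strains 23, 28, 40 and 42.

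Protein folding and degradation lists held several genes with low p-values and no call. Of 28 heat shock and unfolded protein response genes, 4 had an unadjusted p under 0.05 (14.3%, against 2.54% of all genes). These were the chaperones Hspa8 (0.32), Canx (0.19) and Hsph1 (0.17), with higher means, and Hspd1 (-0.27), with a lower one. Hspa8 and Hspd1 have a probe at a multiple of 8. Of 35 proteasome genes, 5 had one (14.3%), with Psmc5 (0.20), Psmc6 (0.20) and Psmd14 (0.18) higher and Psmd12 (-0.60) and Psma1 (-0.30) lower. Both lower ones sit at multiples of 8. The directions were mixed, and every adjusted p was 0.999. Without strains 23, 28, 40 and 42, 1 heat shock gene and 3 proteasome genes had an unadjusted p under 0.05. Over all 15095 genes, 467 then had one. The cell cycle list had a median of 0.00, and metallothioneins, iron and oxidative stress one of -0.01. Of 11 genes known to differ between the parental strains, 2 had an unadjusted p under 0.05 (18.2%, against 2.54% of all genes). That was the largest share of any list, but it rests on these 2 genes. One was Hc, described above with a lower mean. The other, the glyoxalase Glo1, was at 0.44 ± 0.18 (SE; unadjusted p 0.0164) and at 0.32 (unadjusted p 0.0563) without strains 23, 28, 40 and 42. Without these strains 1 of the 11 genes had an unadjusted p under 0.05.

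Cell type markers did not separate the groups at the adjusted threshold. Hepatocyte markers had the highest median of all lists, 0.17 over 14 genes with 9 above 0, and albumin (Alb) was at 0.30 ± 0.19 (SE). Without strains 23, 28, 40 and 42 that median was 0.05. The medians were 0.01 for Kupffer cells and macrophages, 0.00 for lymphocytes, 0.00 for stellate cells and fibroblasts and 0.01 for endothelial cells. Bile duct cells (0.02), red blood cells (0.02), exocrine pancreas (0.00) and adipose tissue (-0.02) were near 0 as well. The ratios are relative to C57BL/6J liver and give no absolute level, so they do not show whether a marker was present.

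**Figure D5:**
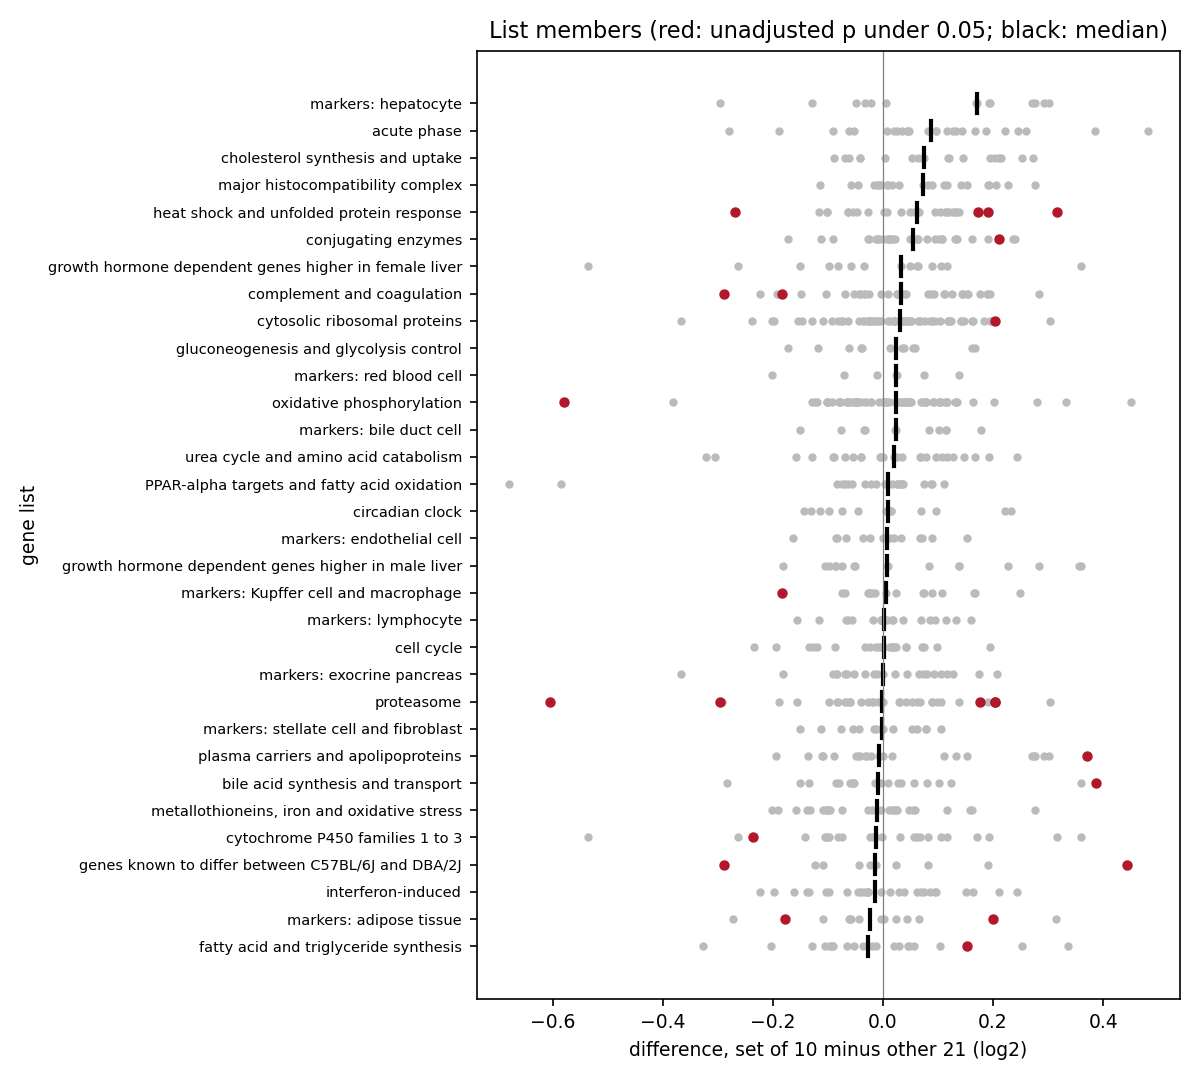
Differences between the set of 10 and the other 21 strains (log2) for the measured members of 32 gene lists (points), with list medians as black bars and members at an unadjusted p under 0.05 in red. The medians lie between -0.03 and 0.17, and no member passed the adjusted threshold.

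The 3 called probes with a known chromosome lay on 3 different ones. The share of probes with an unadjusted p under 0.05 lay between 1.24% on chromosome 18 and 3.6% on chromosome 8, apart from the 16 probes of chromosome Y, of which 0 had one. The arrays of the 10 strains were much like the others. Their median correlation with the other arrays was 0.74 ± 0.07 (SD, n = 10) against 0.66 ± 0.21 (SD, n = 21; permutation p = 0.241, adjusted 0.361). The 4 strains 23, 28, 40 and 42, whose arrays stood apart, were all among the 21, and the lowest median correlation there was 0.06. Without them the means were 0.75 and 0.76, and 5 probes were called, 4 of them the same, with probe 12854 in place of probe 12848. The pairwise r had a median of 0.76 within the set of 10 (45 pairs), 0.72 within the other 21 (210 pairs) and 0.74 between the groups (210 pairs). The 10 strains were thus about as close to the other 21 as to each other.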

How the data were processed

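Liver RNA of 31 strains was measured on 2-colour arrays of 23040 features, of which 21765 had a value on every array. The authors deposited normalized log ratios, read here as log2. The submitters' processing notes name limma, and R 2.0.0. How background was corrected and arrays were normalized is not given in the sources used here. Sorted values differed between arrays by at most 0.000256, so all arrays share one distribution (SD 0.51). Without intensities, signal over background is unknown. Precision is limited by the number of arrays.

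The splitting probe, identifier 12855, was left out, and 21764 probes were compared (10 against 21 strains) with limma 3.58.1 in R 4.3.3 (lmFit and eBayes, a two-sided test, with an adjusted p under 0.05 by Benjamini-Hochberg). Array measures used permutation tests with 1e+05 resamples, two-sided. The test was tried on simulated data. The platform annotation named 1 gene for 16642 probes, several for 134 and none for 4989. Names of 15964 were updated from a RefSeq table of GRCm38.p6, used for names and chromosomes only.

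Named genes were the called probes with 1 gene and no clone name, then such probes by smallest p to 24 in all, members of a list from among the 3 with the greatest absolute difference, up to 6 probes without a gene by smallest p, and probes 12847 to 12863. List members with an unadjusted p under 0.05 and the clone-named genes were named after their values were seen. The strain set, the lists and the tests were chosen with earlier results of these data known. Alternatives were place correction (the median of probes with the same remainder by 8 subtracted on each array), no multiples of 8, array weights, 3 principal components, an exact Wilcoxon test, a difference beyond 0.2, no strain 38, no strains 23, 28, 40 and 42, and each strain left out.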

Additional observations from a re-analysis of the deposited data

Results flagged for a closer look

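Of 34 results tested for a sample far from the rest of the set of 10, 2 had one; chance alone gives about 1 in 20 groups. At the probe of Mrap, strain 32 had a log2 ratio of 1.11, with the next strain of the set at 0.79, a gap of 0.501 of the range of the 10. The array of strain 38 had a median correlation with the other arrays of 0.571, with the next of the set at 0.712, a gap of 0.646 of the range. Without strain 38, limma called 5 probes, the same as with it.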

How the results depend on the processing

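Against 5 called probes, limma called 3 without multiples of 8 (fewer probes were tested, and the 3 called ones that remained were kept), 3 for a difference beyond 0.2 and 8 with array weights; it called between 4 and 8 when each strain was left out in turn. The cause of the change with array weights was not tested. Place correction gave 6, 3 principal components 7, the exact Wilcoxon test 6, and 5 came without strain 38. Helz2 was called in 38 of 38 settings in which it was tested, Adgrg6 and probe 20535 in 39 of 39, 1700006F04Rik in 38 of 39 (adjusted p 0.2 beyond 0.2) and probe 12848 in 32 of 38. These totals hold the fit without strain 38 both as a setting of its own and among the strains left out in turn. Gene list members, refitted only with place correction and without strains 23, 28, 40 and 42, gave 0 calls in both. Without strains 23, 28, 40 and 42 the differences of the 3 array measures changed sign, from 0.0864 to -0.0116 for the median correlation, from -0.0951 to 0.0043 for the median of the multiples of 8 and from 0.0168 to -0.0027 for their SD. None passed either way (smallest adjusted p 0.361 with these strains and 0.858 without). No paired analysis was possible because each strain has its own number. Depth could not be judged without intensities.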
